A study of Mus musculus with 73 samples.

Results

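Mammary adenocarcinomas of mice with the Brca1 variant p.L1363P were compared with adenocarcinomas of the KB1P model, 24 of the 73 tumours sequenced in the series. The members were chosen by the histology and genotype labels, with earlier results of these data known. The 3 tumours of genotype KB1(L1363P)P, numbered 7.2, 26.2 and 52, are called L1363P tumours. The 21 tumours of genotype KB1P carry 2 kinds of title, 11 titled KB1P and 10 titled KB1PM, and the labels do not say how the titles differ. A gene was called only where it passed the test against each title in the same direction. The 5 adenocarcinomas of genotype KP are given beside the results because they were sequenced with the L1363P tumours.

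Every tumour is labelled a mammary adenocarcinoma that is 100% epithelial. The labels spell out no alleles, ages or strains and do not say that tumours came from separate animals, so p-values measure the spread between these samples only. In the established KP and KB1P models, a K14-Cre transgene deletes conditional alleles in mammary epithelium and some other epithelia: p53 is lost in KP tumours, p53 and BRCA1 in KB1P tumours. The conditional Brca1 allele of KB1P loses internal exons, so a shortened transcript can still be counted. Whether the L1363P tumours also carry a conditional Brca1 allele is not given in the labels.

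Run and genotype coincide. The run was read from the first field of each library description, and it was 5625 for each L1363P and each KP tumour. KB1P-titled tumours came from runs 1857 (6 tumours), 2119 (3) and 3528 (2), KB1PM-titled tumours from runs 1725 (3) and 1756 (7). No KB1P tumour was sequenced in run 5625, so a difference between L1363P and KB1P tumours and a difference between runs cannot be told apart. Values of the KP tumours of run 5625 and of the 2 KB1P tumours of run 3528 (tumours 4 and 11) are therefore given beside many of the results.

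The total count per tumour was 14761822 to 16207436 for L1363P, 9090867 to 31615237 for KB1P-titled, 10773581 to 21268733 for KB1PM-titled and 13103749 to 15458067 for KP tumours. Levels are CPM, counts per 1000000 counts of a library whose size was scaled by trimmed means of M values. Epcam, an epithelial adhesion gene, had 702 to 1689 CPM in the L1363P tumours. It was lowest in 1 KB1P tumour (51.7 CPM), 1 KB1PM tumour (51.4 CPM) and 1 KP tumour (1.65 CPM), levels far under those of the other tumours with the same epithelial label. Ptprc, the pan-leukocyte gene, had 39.0 to 69.5 CPM in the L1363P tumours and 6.03 to 174 CPM in the 21 KB1P tumours. In bulk tumours, fewer cells of a type and less RNA per cell cannot be told apart. Ribosomal protein genes, left out of all counts below, took 2.73% to 3.07% of counts in L1363P tumours, 2.1% to 3.71% in KP, 1.25% to 4.12% in KB1P-titled and 1.01% to 1.5% in KB1PM-titled tumours.

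BRCA1 works in homologous recombination, the repair of DNA double-strand breaks from an intact copy. It forms a heterodimer with BARD1 through its RING domain, and through a coiled coil it binds PALB2, which brings BRCA2 to the break. Tumours without this pathway depend on other repair routes and are sensitive to PARP inhibitors. The series title places the variant in the coiled coil and says that it disrupts PALB2 binding, which is why Brca1 and its partners come first.

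The sequence below shows the codon at which the variant lies, in the GENCODE M21 transcript Brca1-201 (1812 coding codons, GRCm38, chromosome 11, minus strand). It is reference sequence, read 5′ to 3′ along the transcript. Capitals mark the codon of the leucine that L1363P changes, CTG, at positions 101517407 to 101517409 in exon 12 of 23. The whole 63 bases lie in that exon, at chr11:101517377-101517439.
Brca1 L1363P codon, reference: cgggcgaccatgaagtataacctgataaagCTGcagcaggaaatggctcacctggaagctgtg
Gene totals do not show which allele or which exons the counted reads came from.

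Brca1 (chromosome 11, 101488764 to 101551955) was higher in L1363P than in KB1P tumours of either title. It had 55.6 CPM in tumour 7.2, 77.0 in tumour 26.2 and 92.0 in tumour 52. KB1P-titled tumours had a lowest value of 21.6, a median of 31.5 and a highest of 43.6 CPM, and KB1PM-titled tumours 16.2, 24.4 and 32.5 CPM. All 3 L1363P tumours lay above all 21 KB1P tumours, and tumour 7.2 was nearest to them. The KP tumours had 19.3, 40.9 and 61.0 CPM, so that their highest overlapped the L1363P range. The log2 fold change was 1.17 (SE 0.29, adjusted p = 0.00833) against KB1P-titled and 1.62 (SE 0.29, adjusted p = 5.69e-05) against KB1PM-titled tumours, by edgeR's quasi-likelihood test with Benjamini-Hochberg adjustment. Against the mean of both titles it was 1.39 (SE 0.26, adjusted p = 0.000133), a 2.63-fold difference. Against KP tumours of the same run it was 1.00 (SE 0.34, adjusted p = 0.248), which did not pass.

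The call of Brca1 rests in part on tumour 52. Without that tumour the log2 fold change against the mean of both titles was 1.22 (edgeR adjusted p = 0.0137), but against KB1P-titled tumours it was 1.00 (adjusted p = 0.12) and no longer passed. Among the KB1P tumours, the 2 of run 3528 had 41.7 and 38.1 CPM, toward the upper end of their title. Against these alone the difference was 0.91 (edgeR adjusted p = 0.328). A higher gene total and the absence of exons from the KB1P transcript cannot be told apart with these counts.

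The partners of Brca1 did not pass the test in either direction. Bard1, the RING partner, had 27.8, 42.3 and 55 CPM in L1363P tumours 7.2, 26.2 and 52, against medians of 38.3 in KB1P-titled and 43.4 in KB1PM-titled tumours. Palb2 had 23.6, 10.3 and 17.0 CPM, against medians of 17.0 and 14.8. Brca2 had 33.1, 44.5 and 68.3 CPM, against medians of 56.0 and 44.6. In each of these 3 genes the L1363P values lay within the range of the 21 KB1P tumours, on both sides of the medians. The KP tumours had 6.72 to 33.9 CPM of Bard1, 7.76 to 17.6 CPM of Palb2 and 12.3 to 34.6 CPM of Brca2, and the 2 KB1P tumours of run 3528 had 35.2 and 38.8, 36.3 and 14.3, and 140.7 and 49.8 CPM. For each gene the KP range overlapped the lowest L1363P values. The log2 fold changes against the mean of both titles were -0.16 (SE 0.43) for Bard1, 0.07 (SE 0.28) for Palb2 and -0.02 (SE 0.33) for Brca2. Trp53, the gene deleted in these models, had 27.1, 25 and 26.5 CPM, against 16.9 to 28.1 CPM in KP tumours, and a difference of 0.10 (SE 0.26). Their edgeR adjusted p-values were 0.892, 0.927, 0.987 and 0.896.

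**Figure D1:**
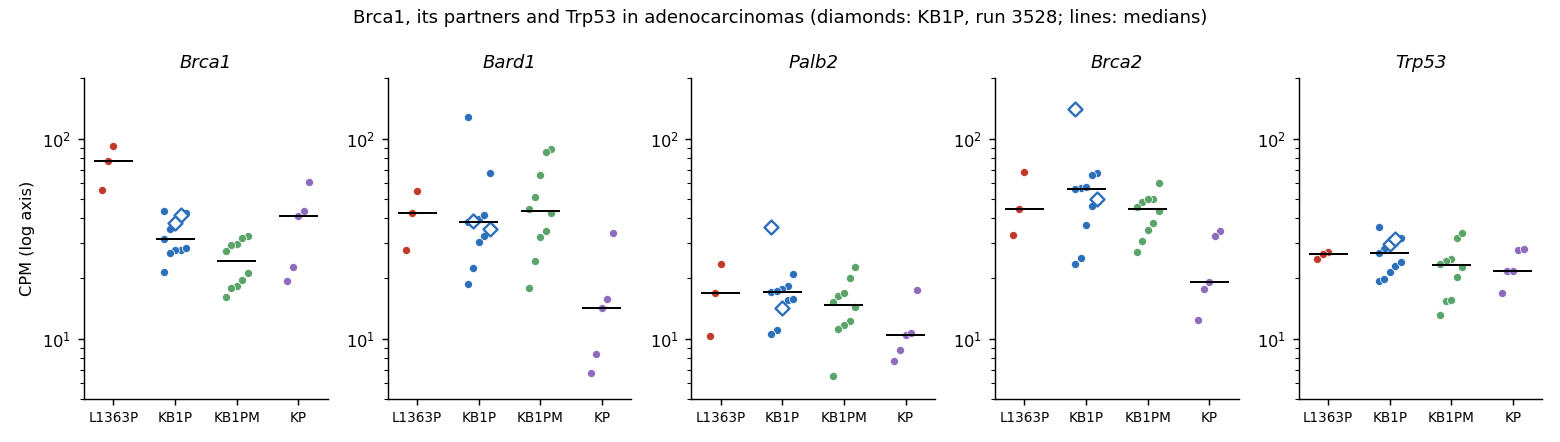
CPM (log axis) of Brca1, Bard1, Palb2, Brca2 and Trp53 in every L1363P, KB1P-titled, KB1PM-titled and KP adenocarcinoma; points are tumours, open diamonds the 2 KB1P tumours of run 3528 and lines group medians. Only in the Brca1 panel do the 3 L1363P tumours (55.6 to 92.0 CPM) lie above all 21 KB1P tumours (highest 43.6 CPM).

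Across the pathway, Brca1 stood alone among the genes tested. Of 28 homologous recombination genes, only Brca1 (1 gene) was called against both titles, where 1.06% of all genes tested were called higher. The list had a median log2 difference of 0.02 against the mean of both titles, where the median of all 17545 genes tested was -0.06. Against KP tumours the list median was 0.55, where that of all genes was -0.03. The 21 genes of end joining and resection control had a median of 0.09 against the mean of both titles, without a call.

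The Fanconi anaemia list, whose proteins handle DNA crosslinks, had 1 of 17 genes called, Faap100, a subunit of the core ubiquitin ligase complex, where 1.15% of all genes tested were called lower. It had 27.2, 19.8 and 31.4 CPM in L1363P tumours 7.2, 26.2 and 52. KB1P-titled tumours had 35.2, 53.7 and 107 CPM (lowest, median, highest) and KB1PM-titled tumours 27.6, 55.2 and 109.9 CPM. The L1363P values were low, 2 of them below all 21. The KP tumours, at 16.3 to 24.5 CPM, were as low or lower. Faap100 fell by 1.23 on the log2 scale (SE 0.33, edgeR adjusted p = 0.0147), and the call against both titles ended without any 1 of the 3 L1363P tumours.

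Over all genes, 186 were higher in L1363P tumours against both titles (1.06% of those tested) and 201 lower (1.15%). Against KB1P-titled tumours alone 553 genes passed (3.15%), and against KB1PM-titled tumours alone 663 (3.78%). Against the mean of both titles 409 were higher (2.33%) and 310 lower (1.77%). These comparisons share the 3 L1363P tumours. The KB1PM-titled tumours differed from the KB1P-titled ones in 120 genes (0.684%). That count moved with the fit, to 15 without run 3528, 1 in a fit of the 24 libraries alone, 3 by limma, and 253 to 257 when 1 L1363P tumour was left out of the shared fit. Within the KB1P title runs 1857 and 2119 differed in 1 gene of 18145 (0.00551%), Tex11. Run 3528 was not tested against these 2 runs, and its tumours stood apart from them in some genes. Kpna2 had 82.7 and 68.8 CPM in run 3528, against 3.10 to 8.93 CPM in the other KB1P-titled tumours. Gapdh had 193 and 1278 CPM, against 16.6 to 56.5 CPM. DESeq2 called 182 genes higher and 373 lower against both titles, and limma on the deposited log2 values 136 and 271, so the share of higher calls was 48.1% by edgeR, 32.8% by DESeq2 and 33.4% by limma.

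Inside run 5625 fewer genes passed the adjusted test, with 5 KP tumours on the other side in place of 21. L1363P and KP tumours differed in 12 genes by edgeR (0.0684%), 107 by DESeq2 and 0 by limma. At an unadjusted p under 0.05, 877 genes were higher and 1146 lower against KP by edgeR, beside 1393 and 1413 against the mean of both titles. The 186 higher genes had a median log2 difference of 1.47 against the mean of both titles, 0.93 against the 2 KB1P tumours of run 3528 and 0.39 against KP tumours. The 201 lower genes had medians of -1.67, -1.69 and -0.21. Of the higher genes 6 were called against KP tumours. Of the lower genes 0 were called against KP by edgeR, 20 were lower and 4 higher at an unadjusted p under 0.05, and DESeq2 called 2 and limma 0. Against run 3528 alone 38 genes were higher (0.209% of 18145) and 152 lower (0.838%), so that fewer higher than lower calls were made there, with 2 tumours on that side. How far run or genotype accounts for these differences was not tested and cannot be told apart by this design.

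The agreement of the 3 L1363P tumours differed by direction. Of all genes tested, 83 had all 3 L1363P tumours above all 21 KB1P tumours (0.473%) and 205 had all 3 below (1.17%). Among the 186 higher genes, 45 had all 3 above, 70 had 2, 62 had 1 and 9 had none. Among the 201 lower genes, 132 had all 3 below. In 30 of the higher genes 1 L1363P tumour was at least 4-fold above the other 2, 14 of them in tumour 52, 12 in tumour 7.2 and 4 in tumour 26.2. The calls also leaned on each tumour, since 31 of the higher and 49 of the lower genes were called whichever tumour was left out.

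Among the higher genes named by fold change or p-value were Kpna2, Hnrnpa1, Hnrnpa3, Eif4a1 and Eef1g, each above all 21 KB1P tumours in all 3 L1363P tumours. Kpna2 (chromosome 11, 106988629 to 106999541), an importin alpha that carries cargo into the nucleus, had 109, 132 and 117 CPM in tumours 7.2, 26.2 and 52. The 19 KB1P tumours outside run 3528 had 2.79 to 8.93 CPM, with a median of 4.39 over the KB1PM-titled tumours. The L1363P tumours were far above these without overlap, but the 2 of run 3528 had 82.7 and 68.8 CPM and the KP tumours 46.3, 72.0 and 119.5 CPM (lowest, median, highest). Kpna2 was 13.4-fold higher against the mean of both titles, with a log2 fold change of 3.74 (SE 0.40, edgeR adjusted p = 2.17e-10). Against KP the difference was 0.61 (adjusted p = 0.761) and against run 3528 it was 0.66 (adjusted p = 0.403).

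Hnrnpa1 and Hnrnpa3, which encode RNA-binding proteins of splicing, had the same arrangement. Hnrnpa1 had 329, 394 and 507 CPM in L1363P tumours, 24.7 to 56.0 CPM in the 19 KB1P tumours outside run 3528, 264 and 249 CPM in run 3528 and 211 to 471 CPM in KP tumours. Hnrnpa3 had 455, 626 and 485 CPM, 23.6 to 70.7 CPM, 205 and 380 CPM, and 283 to 598 CPM in the same order. For both genes the L1363P tumours stood above all 21 KB1P tumours, run 3528 was between, and KP tumours overlapped the L1363P range. The log2 fold changes were 2.93 (SE 0.29, edgeR adjusted p = 2.14e-11) for Hnrnpa1 and 3.12 (SE 0.34, adjusted p = 2.2e-10) for Hnrnpa3.

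Eif4a1, the RNA helicase of translation initiation, had 750, 969.6 and 887 CPM in L1363P tumours, 85.1 to 263 CPM in the 19 KB1P tumours outside run 3528, 357 and 562 CPM in run 3528 and 420.3 to 915 CPM in KP tumours. Eef1g, an elongation factor subunit, had 514, 517 and 551 CPM, 67.6 to 146 CPM, 243 and 312 CPM, and 329 to 743 CPM in the same order. The L1363P values were above all 21 KB1P tumours for both genes and overlapped those of KP. Eif4a1 rose by 2.30 on the log2 scale (SE 0.20, edgeR adjusted p = 8.56e-14) and Eef1g by 2.23 (SE 0.24, adjusted p = 1.32e-10). Ppih, a cyclophilin of the spliceosome, Sarnp, an mRNA export factor, and Capza1, which caps actin filaments, were also above all 21 in all 3 tumours, with log2 fold changes of 2.00, 1.78 and 2.07. Ppih had 18.5, 49.5 and 18.2 CPM in tumours 7.2, 26.2 and 52, and without tumour 26.2 its log2 fold change was 1.36.

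Actg1, the cytoplasmic gamma actin gene, varied more among the L1363P tumours. It had 231, 74.3 and 512 CPM, against 6.56 to 35.7 CPM in the 19 KB1P tumours outside run 3528 and 273 and 119 CPM in run 3528, and 151 to 384 CPM in KP tumours. Tumour 26.2 lay below both tumours of run 3528, and only tumour 52 was above all 21. Its log2 fold change was 3.45 (SE 0.47, edgeR adjusted p = 1.05e-07) against the mean of both titles, and without tumour 52 it no longer passed against KB1P-titled tumours (1.75, adjusted p = 0.174).

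These genes share a feature that the comparison did not use. Of 183 higher genes with annotation, 105 (57.4%) had at least 1 annotated pseudogene copy, against 9.05% of the 15545 tested genes with annotation and 8.07% of the lower genes. A copy here is an annotated pseudogene of at least 200 bases. At least 0.5 of its length aligns to the gene's longest coding transcript, at an identity of at least 0.9. Hnrnpa3 had 33 such copies, Actg1 11, Hspa8 10, Kpna2 8 and Eef1g 5. Reads that match a gene and its copy equally can be counted differently by different settings, so the levels of these genes are uncertain. By number of copies (0, 1, 2 to 3, and 4 or more) the median log2 difference against the mean of both titles was -0.05, 0.23, 0.39 and 0.71. Against run 3528 the medians were 0.11, 0.21, 0.27 and 0.28, and against KP tumours -0.05, 0.06, 0.03 and 0.04. The difference grew with the number of copies against KB1P tumours and was near 0 against KP tumours. The part of read counting in the higher calls was not tested.

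**Figure D2:**
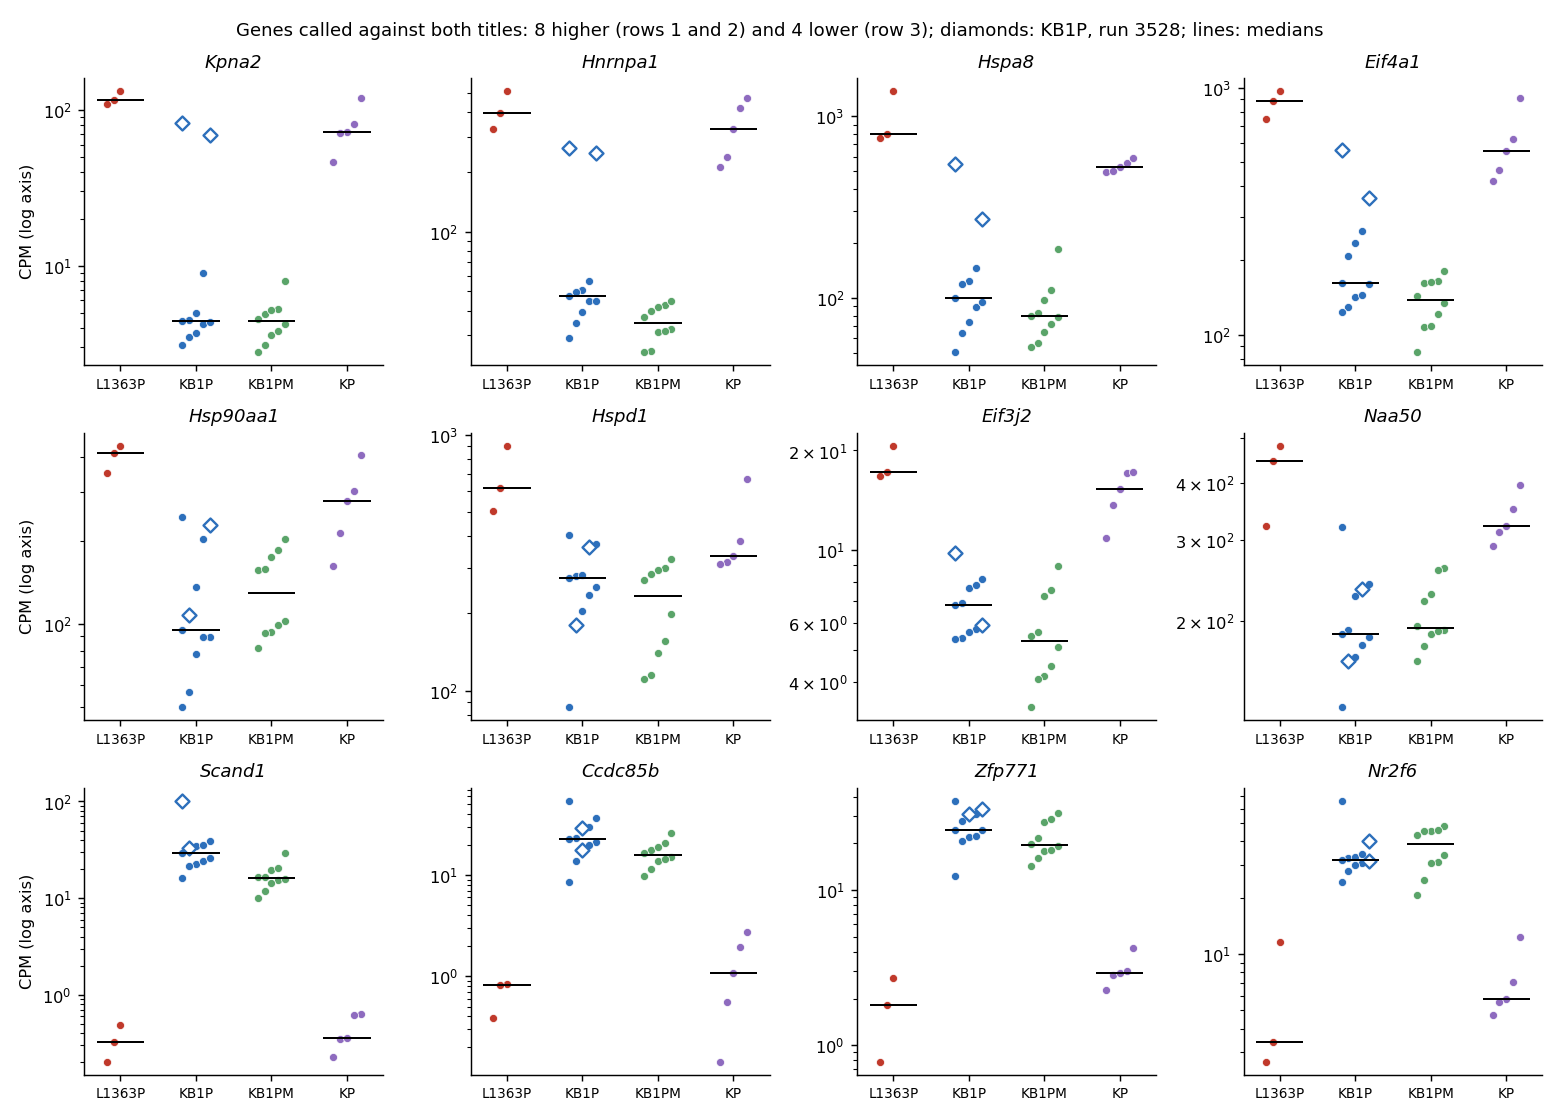
CPM (log axis) of 8 genes called higher and 4 called lower against both titles; points are tumours, open diamonds the 2 KB1P tumours of run 3528 and lines group medians. In each panel the 3 L1363P tumours lie beyond all 21 KB1P tumours, and run 3528 lies near them for Kpna2 (82.7 and 68.8 CPM) but with the other KB1P tumours for Scand1 (33.2 and 101 CPM).

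Of the 13242 tested genes without such a copy and without exons overlapped to 20% or more by another gene, 77 were called higher. Of all genes tested 1.06% were called higher, and 0.473% had all 3 L1363P tumours above all 21. Among the 77 genes 14 had all 3 above all 21. The following were chosen from these 14 after their values were seen. Naa50, an N-terminal acetyltransferase, had 322, 479.9 and 447 CPM in L1363P tumours, 129.8 to 319 CPM in KB1P-titled, 163 to 261 CPM in KB1PM-titled and 291 to 395 CPM in KP tumours. Eif3j2, which encodes a subunit of an initiation factor, had 16.8, 17.3 and 20.6 CPM, against 5.37 to 9.76, 3.36 to 8.96 and 10.9 to 17.2 CPM in the same order. The L1363P tumours were higher than each KB1P tumour, in Naa50 by a small margin, and were closely grouped in Eif3j2 only. Naa50 lies on chromosome 16, where 21 of 521 genes tested (4.03%) were called higher. In both genes the KP range overlapped tumour 7.2 of the L1363P group. The log2 fold changes were 1.02 (SE 0.18, edgeR adjusted p = 4.29e-05) for Naa50 and 1.55 (SE 0.21, adjusted p = 1.07e-07) for Eif3j2, and 0.32 and 0.30 against KP, which did not pass (adjusted p = 0.632 and 0.748). Eif3j1 has a near-identical relative in Eif3j2, so the split of reads between them is uncertain.

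Heat shock genes were the list with the most calls, 4 of 13, all higher against both titles, where 1.06% of all genes tested were. Their median log2 difference was 0.75 against the mean of both titles and 0.64 against KP. The proteins are chaperones that fold newly made or damaged proteins. Hspa8, the constitutive HSP70, had 760, 1369 and 797 CPM in L1363P tumours 7.2, 26.2 and 52. KB1P-titled tumours had 50.4, 100.4 and 546 CPM (lowest, median, highest), KB1PM-titled tumours 53.4, 79.1 and 185 CPM, and KP tumours 492, 529 and 587 CPM. All 3 L1363P tumours were above every KB1P and KP tumour. Hspa8 was 8.42-fold higher against the mean of both titles, a log2 fold change of 3.07 (SE 0.28, edgeR adjusted p = 2.86e-13), and the difference of 0.87 from KP did not pass (adjusted p = 0.402).

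Hsp90aa1, the inducible HSP90, had 414, 438 and 352 CPM, against 50.1 to 243 CPM in KB1P-titled, 82.1 to 203 CPM in KB1PM-titled and 162 to 408 CPM in KP tumours. Hspd1, the mitochondrial HSP60, had 505, 899 and 619.6 CPM, against 86.3 to 404, 111 to 327 and 313 to 669 CPM. Both genes were above all 21 KB1P tumours in all 3 L1363P tumours and overlapped KP. The log2 fold changes were 1.63 (SE 0.35, edgeR adjusted p = 0.00103) and 1.48 (SE 0.26, adjusted p = 4.26e-05). Hspb1, the small chaperone HSP27, had 34.4, 190.0 and 162 CPM, so that tumour 7.2 lay inside the KB1P range, whose highest value was 60.3. Its log2 fold change was 2.32 (SE 0.58, edgeR adjusted p = 0.00641). Without tumour 26.2 the calls of Hspd1, Hsp90aa1 and Hspb1 against both titles ended, and Hspb1 also lost its call without tumour 52.

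The other 9 chaperone genes did not pass against both titles. Hspa5, the chaperone of the endoplasmic reticulum, had 1043, 1418 and 1774 CPM and passed against the mean of both titles only (0.76, edgeR adjusted p = 0.0426). Hspa1a and Hspa1b, the most stress-inducible HSP70 genes, had differences of 0.75 and 0.66 with adjusted p of 0.716 and 0.704, and were highest in tumour 52 (52.2 and 146 CPM). Hspe1, the partner of Hspd1, had 31.6, 57.7 and 72.3 CPM, within the KB1P range. Summed over the list, the L1363P tumours had 6153, 8700 and 10460 CPM, against 2914 to 6188 in KB1P-titled, 2834 to 5464 in KB1PM-titled and 5112 to 7791 in KP tumours. The lowest L1363P sum was thus just under the highest KB1P one. Hspa8 has 10 annotated copies, Hsp90aa1 5 and Hspd1 4, while Hspa5 and Hspb1 have 0.

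The lower genes were arranged differently with respect to run 3528. Scand1, a small protein with a SCAN domain (chromosome 2, 156311847 to 156312704), had 0.482, 0.324 and 0.202 CPM in L1363P tumours, 9.996 to 39.0 CPM in the 19 KB1P tumours outside run 3528 and 33.2 and 101 CPM in run 3528. The KP tumours had 0.225 to 0.637 CPM. L1363P and KP tumours overlapped near 0, and all KB1P tumours were high. Scand1 was 70.3-fold lower, with a log2 fold change of -6.14 (SE 0.81, edgeR adjusted p = 5.23e-08), and -0.36 against KP (adjusted p = 0.907).

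Ccdc85b, a coiled-coil protein, had 0.843, 0.389 and 0.810 CPM in L1363P, 8.59 to 53.6 CPM in the 21 KB1P and 0.143 to 2.76 CPM in KP tumours. Zfp771, a zinc finger protein, had 0.783, 1.82 and 2.7 CPM in L1363P, 12.3 to 37.3 CPM in the 21 KB1P and 2.28 to 4.23 CPM in KP tumours. Nr2f6, an orphan nuclear receptor, had 3.37, 2.66 and 11.6 CPM in L1363P, 20.8 to 65.6 CPM in the 21 KB1P and 4.70 to 12.3 CPM in KP tumours. In each of them the L1363P tumours were below all 21 KB1P tumours and lay among or below the KP tumours. The log2 fold changes were -4.88 (SE 0.65), -3.74 (SE 0.38) and -2.61 (SE 0.38), with edgeR adjusted p of 5.53e-08, 3.97e-11 and 6.74e-07. Nr2f6 was highest in tumour 52, and without that tumour its log2 fold change was -3.56.

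Of the other lower genes named by fold change, Nrtn, which encodes the growth factor neurturin, fell by 5.33 on the log2 scale, Prr7 by 4.67, Mrps34, a mitochondrial ribosome subunit, by 3.87, the linker histone gene H1fx by 3.48, Snrpf, an Sm protein of the spliceosome, by 3.48 and Endog, a mitochondrial nuclease, by 3.18. The unplaced gene CAAA01147332.1 fell by 4.62. All 3 L1363P tumours were below all 21 in these 7 genes. Without tumour 26.2 the log2 fold change of Nrtn was -6.38, and without tumour 7.2 that of H1fx was -4.43. The call of H1fx ended without tumour 26.2 or tumour 52. Nme2, a nucleoside diphosphate kinase, and Atp5l, a subunit of ATP synthase, were exceptions with respect to run 3528. Nme2 had 0.120 to 0.195 CPM in L1363P tumours, 1.42 and 0.952 CPM in run 3528 and 4.54 to 14.9 CPM in the other 19 KB1P tumours. Atp5l had 0.301, 0.778 and 0.337 CPM, 0.945 and 0.529 CPM in run 3528 and 2.12 to 7.39 CPM in the other 19. In these 2 genes run 3528 lay below the other 19 KB1P tumours. Against run 3528 alone, Nme2 was still lower in L1363P tumours (log2 fold change -2.91, edgeR adjusted p = 0.00317). Atp5l did not pass there (-0.64, adjusted p = 0.63).

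Lower calls named by p-value were smaller in size. Zfp865, Adnp, a chromatin-associated homeodomain protein, Cox11, an assembly factor of cytochrome c oxidase, Armc5 and Pagr1a fell by 1.85, 2.69, 2.34, 1.39 and 1.95 on the log2 scale, with all 3 L1363P tumours below all 21. Pagr1a belongs to the same histone methyltransferase complex as Kmt2d. In the tumour suppressor list Kmt2d was the 1 gene called of 12, where 1.15% of all genes tested were called lower. Kmt2d had 206, 291 and 172 CPM in L1363P tumours, 359.7 to 706 CPM in KB1P-titled, 462 to 875 CPM in KB1PM-titled and 101 to 261 CPM in KP tumours. The L1363P tumours were below all 21 and mostly within the KP range. Its log2 fold change was -1.37 (SE 0.31, edgeR adjusted p = 0.00258), and its call against both titles ended without tumour 7.2 or tumour 52.

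Lower genes as a group differed in base composition, though not each of them. Their transcripts had a median GC content of 59.2%, against 50.3% over all tested genes and 45.4% for the higher genes. By GC content of the transcript (under 45%, 45 to 50%, 50 to 55%, 55 to 60% and over 60%) the median log2 difference against the mean of both titles was 0.21, 0.08, -0.06, -0.27 and -0.81. Of the 161 lower genes with annotation, 74 lay in the class over 60%, which holds 770 genes. In the classes under 45% and 45 to 50% there were 6 and 9 lower genes, among them Snrpf (41.3%) and Adnp (48.1%). Against run 3528 the class medians were 0.28, 0.21, 0.13, -0.08 and -0.66, and against KP tumours -0.10, -0.03, -0.01, 0.01 and -0.02. The medians fell with GC content against KB1P tumours of all runs and of run 3528 alone, and stayed near 0 against KP. Other genes covered 20% or more of the exons in 40 of the 161 lower genes (24.8%), against 6.42% of all tested genes. Pagr1a was covered to 98.7%, Adnp to 82.1% and Nme2 to 48.9% on the same strand. On the opposite strand Snrpf was covered to 85.4%, Nr2f6 to 54.4%, Cox11 to 48.4%, Scand1 to 40.4%, Endog to 35.6%, Ccdc85b to 24.7% and Zfp865 to 20.7%. Mrps34 was covered to 37% on the same and 63.4% on the opposite strand. The counts of all these genes are therefore uncertain. The part of base composition or gene overlap in the lower calls was not tested.

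**Figure D3:**
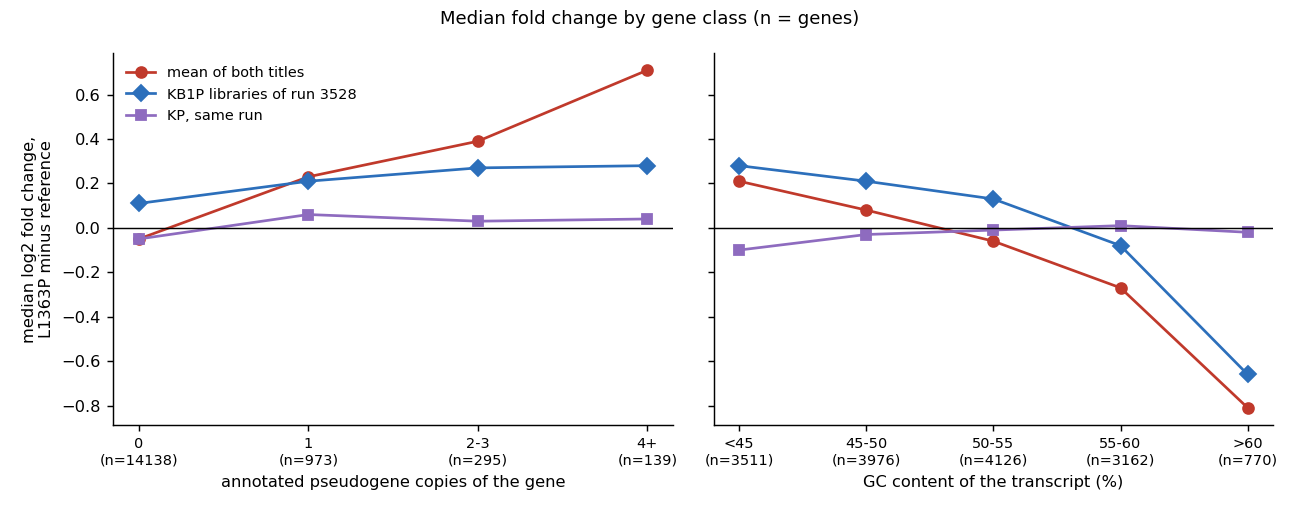
Median log2 fold change of genes grouped by annotated pseudogene copies and by transcript GC percent, for L1363P against the mean of both KB1P titles, against the KB1P tumours of run 3528 and against KP tumours; the 3 comparisons share the L1363P tumours, and n is the number of genes. Against both titles the medians rise with copies to 0.71 and fall with GC percent to -0.81, while those against KP tumours stay between -0.10 and 0.06.

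Several of the strongest single changes belonged to 1 tumour and to neighbouring genes. The stretches were chosen after the values were seen, and protein-coding genes in them are described without a test of the stretch. On chromosome 15, from 3268547 to 54952892, 96 genes had a median of 1.67 on the log2 scale above the median of the 21 KB1P tumours in tumour 7.2, 0.26 in tumour 26.2 and -0.06 in tumour 52. Single KB1P tumours had medians of -0.42 to 0.41. In tumour 7.2, 33 of the genes were at least 4-fold above the median of the 21, against 4 and 3 in the other L1363P tumours and at most 5 in any KB1P tumour. The 5 KP tumours had 5 to 12 such genes and medians of 0.07 to 0.63. Tumour 7.2 had the highest number and median of these 29 tumours. Its excess did not run through every gene. Toward the far end Eif3h, Rad21 and Ext1 were only 1.04-, 1.04- and 1.16-fold above the median of the 21 in tumour 7.2. Eif3e and Enpp2 were below that median there, while Ccn3 was 7.61-fold above it.

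Among the 96 genes Angpt1, the activating ligand of the endothelial receptor TIE2, was the furthest above the median of the 21 in tumour 7.2. It had 128 CPM in tumour 7.2, 11.8 in tumour 26.2 and 1.28 in tumour 52. The range was 0.423 to 6.58 CPM in KB1P-titled, 0.732 to 13.1 CPM in KB1PM-titled and 9.14 to 46.8 CPM in KP tumours. All 5 KP tumours lay between tumours 7.2 and 52. Angpt1 was 69.6-fold above the median of the 21 in tumour 7.2. Emc2, a subunit of the endoplasmic reticulum membrane complex, the RNA polymerase subunit gene Polr2k, the polyamine regulator Azin1 and the poly(A)-binding protein gene Pabpc1 were 6.97-, 6.92-, 6.71- and 5.50-fold above it there. Where 1.06% of all genes tested were called higher against both titles, 21 of the 96 genes were. Without tumour 7.2 the number was 0 by edgeR, with 7 at an unadjusted p under 0.05, and without tumour 52 it was 20. Angpt1 had a log2 fold change of 3.99 (SE 0.64, adjusted p = 6.12e-06) with all tumours and 1.15 (adjusted p = 0.586) without tumour 7.2.

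Tumour 52 had excesses on chromosome X and chromosome 16. On chromosome X, from 47809368 to 78583896, 18 of 90 genes were at least 4-fold above the median of the 21 KB1P tumours in tumour 52, against 1 each in the other L1363P tumours and at most 8 in any KB1P or KP tumour. Haus7, a subunit of the spindle complex augmin, had 20.9, 28.1 and 1192 CPM in tumours 7.2, 26.2 and 52, against 12.0 to 56.7 CPM in the 21 and 16.2 to 39.8 CPM in KP tumours. Mmgt1, a subunit of the endoplasmic reticulum membrane complex, had 109, 119 and 2381 CPM, against 52.2 to 174 CPM and 60.3 to 119 CPM. In both genes tumour 52 alone was high, 51.8-fold and 34.5-fold above the median of the 21. The zinc finger gene Zfp275, Smim10l2a, Zfp185 and Mospd1 were 24.2-, 23.8-, 21.9- and 19.1-fold above it there. Some genes between them were also high in tumour 52, such as Zfp449 (16.3-fold), Ints6l (6.92-fold) and F8a (7.30-fold). Others between Mmgt1 and Zfp185, such as Htatsf1 (1.14-fold) and Fmr1 (1.54-fold), were near the median of the 21. The median of the stretch in tumour 52 was 0.45, against -0.36 to 1.21 in single KB1P tumours and -0.01 to 0.70 in KP tumours.

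On chromosome 16, from 70313949 to 90143769, 6 of 24 genes were at least 4-fold above the median of the 21 in tumour 52, against 1 in tumour 7.2, 0 in tumour 26.2 and at most 1 in any KB1P or KP tumour. Hspa13, an HSP70 relative of the endoplasmic reticulum, Mrpl39, a mitochondrial ribosome subunit, Atp5j, a subunit of ATP synthase, and Gabpa, an ETS transcription factor, were 10.3-, 7.56-, 6.61- and 4.18-fold above it there. Where 1.06% of all genes tested were called higher against both titles, 11 of the 90 on chromosome X and 6 of the 24 on chromosome 16 were. Without tumour 52 both numbers were 0 by edgeR, with 1 and 5 genes at an unadjusted p under 0.05. DNA copy number was not analysed here.

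**Figure D4:**
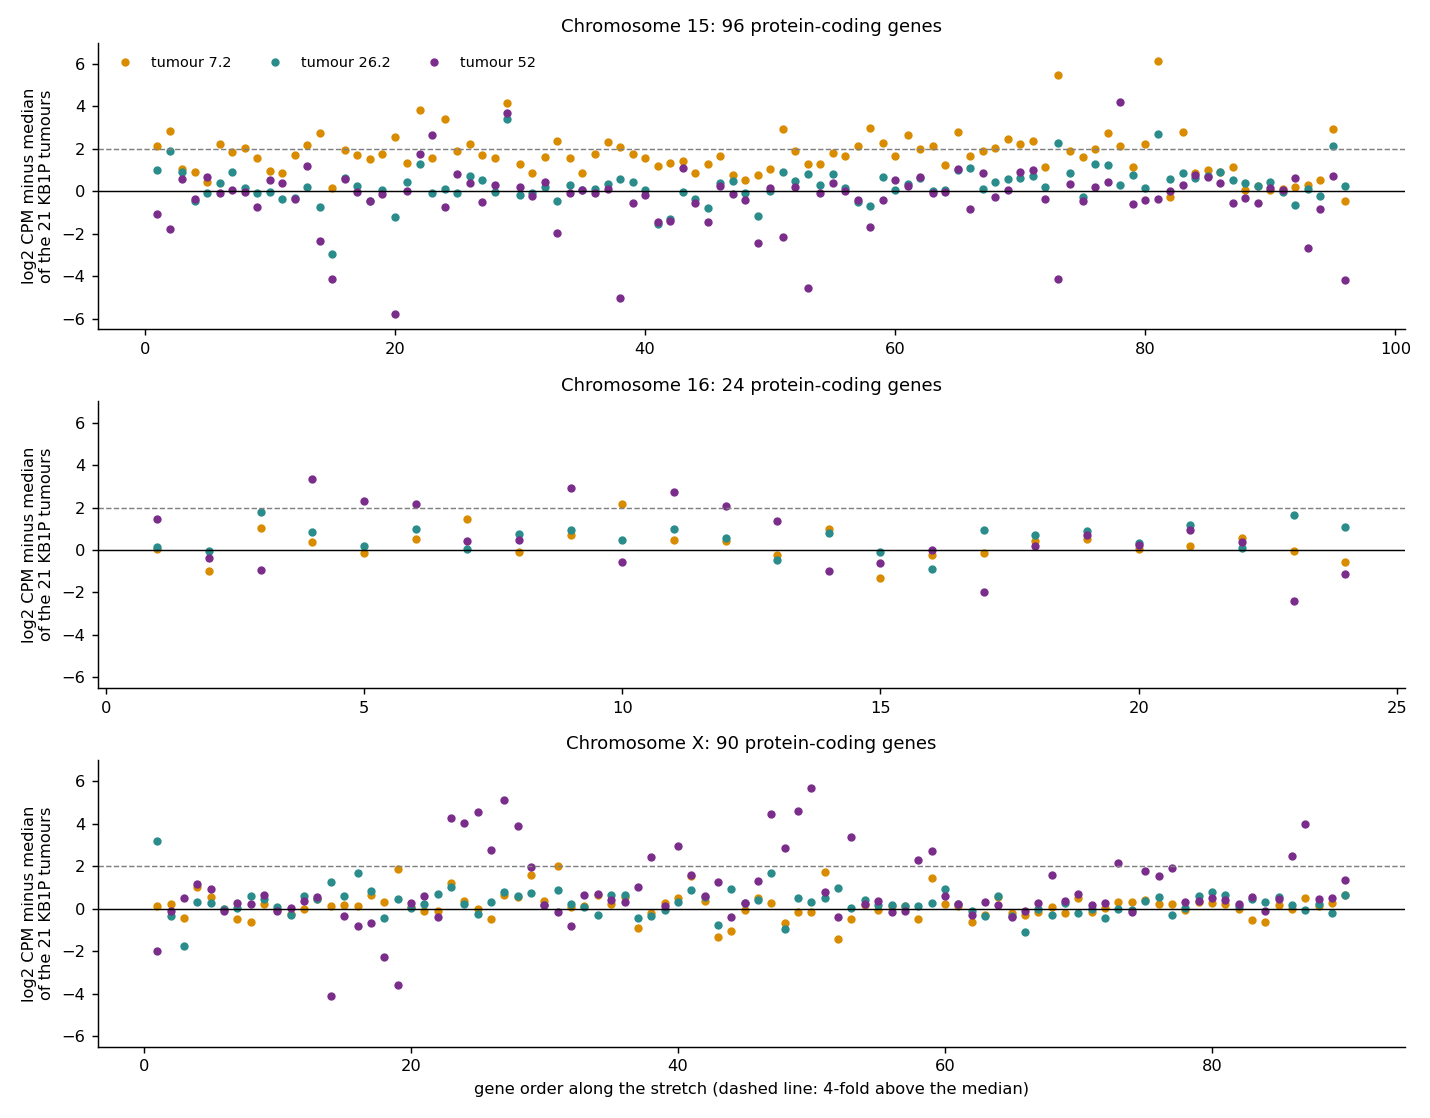
Log2 CPM minus the median of the 21 KB1P tumours for protein-coding genes in order along stretches of chromosomes 15, 16 and X, in L1363P tumours 7.2, 26.2 and 52; the dashed line marks 4-fold. Tumour 7.2 lies above the others in most genes of the chromosome 15 stretch (median 1.67), but not in several toward its right end. Tumour 52 has 18 genes at least 4-fold above the median on X and 6 on chromosome 16.

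Fabp4, the fatty acid carrier of adipocytes and macrophages, was another single-tumour call. It had 19.2, 147.5 and 3933 CPM in L1363P tumours 7.2, 26.2 and 52, against 3.39 to 71.6 CPM in KB1P-titled, 3.33 to 260.2 CPM in KB1PM-titled and 43.8 to 107 CPM in KP tumours. Only tumour 52 was above all KB1P tumours. Its log2 fold change was 5.36 (SE 0.69, edgeR adjusted p = 2.62e-08) and fell to 1.32 (adjusted p = 0.577) without tumour 52. Pparg, the master regulator of fat cell formation, had 9.09, 16.3 and 0.877 CPM, so that it was low where Fabp4 was highest, against 0.423 to 5.57 CPM in the 21. Its log2 fold change was 2.34 (SE 0.51, edgeR adjusted p = 0.00126), with no call against both titles without tumour 26.2.

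Fabp4 and Pparg were the 2 adipocyte genes called of 11, both higher, where 1.06% of all genes tested were called higher. The defining adipocyte genes Adipoq, Plin1, Lep and Cidec were at 0.0675, 0, 0.0675 and 0 CPM in tumour 52, and highest of the L1363P tumours in tumour 26.2, at 15, 3.89, 3.57 and 9.60 CPM. The list's summed level was 74.7, 308 and 3948 CPM in the L1363P tumours, against 24.1 to 344 in KB1P-titled and 16.0 to 325 in KB1PM-titled tumours. The sum stood out in tumour 52 alone, where the defining genes were at or near 0.

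Of the 38 gene lists, 32 had 0 genes called against both titles by edgeR. They hold 496 genes, of which 10 were higher and 11 lower against both titles at an unadjusted p under 0.05, DESeq2 called 4 lower and 0 higher, and limma called 0. Replication genes had a median log2 difference of 0.42, with 0 of 23 called against both titles. Pcna, the sliding clamp, had 120.4, 157 and 212 CPM, against 69.3 to 188 CPM in KB1P-titled and 54.4 to 91.7 CPM in KB1PM-titled tumours. It passed against KB1PM-titled tumours (1.16, edgeR adjusted p = 6.95e-05) but not against KB1P-titled ones (0.53, adjusted p = 0.168). Mcm4, a helicase subunit, likewise passed against KB1PM-titled tumours only (0.90, adjusted p = 0.0331). Against KP tumours the replication median was 0.95 and the mitosis median 0.76.

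The lists of tumour cell identity gave no calls against both titles. The median log2 difference against the mean of both titles was 0.44 for 19 epithelial genes, -0.28 for 19 basal epithelial genes, 0.45 for 17 luminal and hormone receptor genes and -0.08 for 15 mesenchymal genes. Milk protein genes had a median of 1.02, and their sum was 651 to 3171 CPM in L1363P tumours against 49.5 to 3155 CPM in the 21, an overlap over most of the range. Among other cell types the medians were 0.34 for macrophage, 0.40 for T and NK cell, 0.57 for neutrophil, 0.63 for fibroblast and collagen and -0.01 for endothelial genes. The interferon response had -0.13, MHC class I 0.23 and p53 targets -0.35. Against KP tumours of the same run the medians were -1.44 for macrophage, -1.60 for T and NK cell, -2.07 for neutrophil, -1.26 for fibroblast and collagen and -1.26 for interferon response genes. Several medians also had opposite signs against the 2 titles, among them luminal and hormone receptor genes (0.75 against KB1P-titled, -0.12 against KB1PM-titled) and the interferon response (0.13 and -0.52).

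In the hypoxia and glycolysis list 1 of 21 genes was called, Pgam1, a phosphoglycerate mutase, where 1.06% of all genes tested were called higher. It had 33.8, 52.3 and 70.9 CPM in L1363P tumours, 7.86 to 16.3 CPM in the 19 KB1P tumours outside run 3528, 39.5 CPM in each tumour of run 3528 and 31.1 to 107 CPM in KP tumours. Tumour 7.2 lay below run 3528 and the other L1363P tumours above all 21. The log2 fold change was 1.93 (SE 0.29, edgeR adjusted p = 1.32e-06), and the list median was -0.03. Pgam1 has 3 annotated pseudogene copies.

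**Figure D5:**
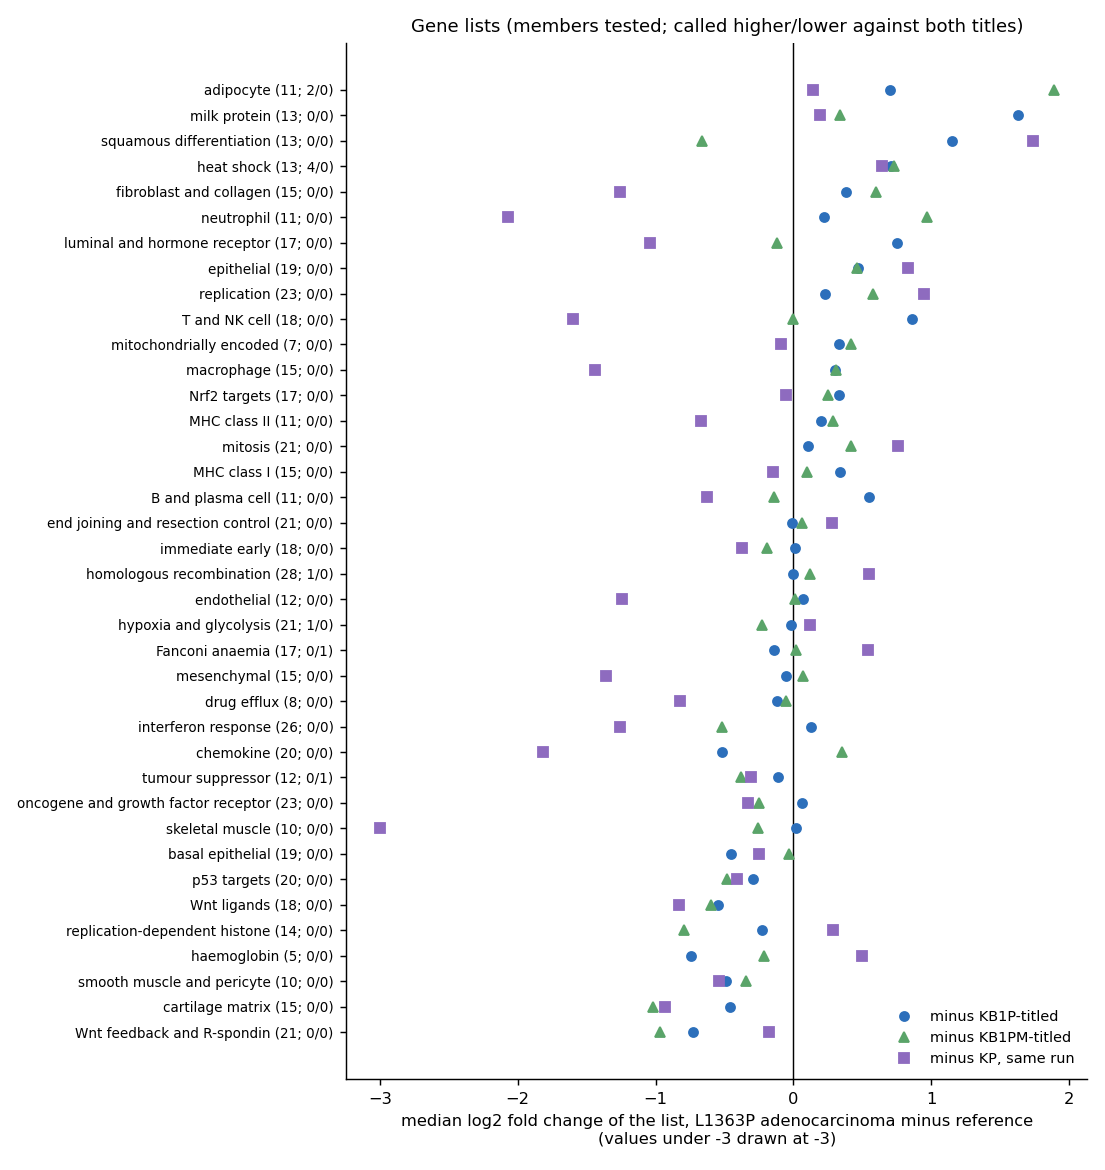
Median log2 fold change of each of the 38 gene lists in L1363P tumours, against KB1P-titled tumours (circles), KB1PM-titled tumours (triangles) and KP tumours (squares, a value under -3 drawn at -3), with the members tested and called higher and lower against both titles beside each name; the 3 comparisons share the L1363P tumours. Heat shock genes (0.71 and 0.73 against the titles) hold 4 of the 8 higher calls, and the homologous recombination list lies at 0 and 0.12 with Brca1 as its single call.

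Some genes passed against 1 title only and also differed between the titles, 16 higher and 5 lower in L1363P tumours. Gapdh, Hmgn2, Pam16 and Abcb1b were named from these by that condition, so the title difference in them is no result. Gapdh, a glycolytic enzyme with 158 annotated pseudogene copies, had 362, 646 and 804 CPM in L1363P tumours, 12.4 to 68.0 CPM in the 19 KB1P tumours outside run 3528, 193 and 1278 CPM in run 3528 and 232 to 1960 CPM in KP tumours. The 2 tumours of run 3528 lay on either side of the L1363P tumours. Gapdh passed against KB1PM-titled tumours (4.21, SE 0.64, edgeR adjusted p = 1.43e-06) and not against KB1P-titled ones (1.91, SE 0.64, adjusted p = 0.0751). Hmgn2, a nucleosome-binding protein gene with 23 copies, and Pam16, a subunit of the mitochondrial import motor, were 2 others. Hmgn2 had 59.5, 46.0 and 65.0 CPM in L1363P tumours 7.2, 26.2 and 52, under the 78.7 and 79.2 CPM of run 3528, and 21.4 to 50.4 CPM in KP tumours. Pam16 had 8.49, 10.4 and 7.49 CPM in L1363P tumours, 8.66 and 24.0 CPM in run 3528 and 4.71 to 9.05 CPM in KP tumours. Against KB1PM-titled tumours their log2 fold changes were 3.02 and 2.25.

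Abcb1b, which encodes a P-glycoprotein drug efflux pump, was a lower gene of this kind. It had 10.4, 10.7 and 2.90 CPM in L1363P tumours, 1.02, 3.47 and 16.2 CPM in KB1P-titled and 36.4, 73.3 and 303 CPM in KB1PM-titled tumours (lowest, median, highest). The L1363P tumours lay within the KB1P-titled range and below every KB1PM-titled tumour, so the high group was the KB1PM-titled one. It was -3.51 (SE 1.01, edgeR adjusted p = 0.0256) against KB1PM-titled and 0.74 (SE 0.76, adjusted p = 0.68) against KB1P-titled tumours. Its neighbour Abcb1a, the other P-glycoprotein gene, had 5.12, 2.33 and 1.75 CPM in L1363P tumours and passed in neither comparison (adjusted p = 0.968 and 0.653).

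Within run 5625, where genotype is not tied to run, the 12 genes that passed between L1363P and KP tumours were mostly of 2 kinds. Mmgt1, Haus7, Mospd1 and F8a on chromosome X and Mrpl39 on chromosome 16 were genes with the high value of tumour 52, and Nup155, a nuclear pore gene on chromosome 15, and B4galnt2, a glycosyltransferase gene, had their high value in tumour 7.2. The 1 lower gene, 4930502E18Rik, had at most 0.389 CPM in the L1363P tumours. Hjurp, the chaperone of the centromeric histone, Kif18b, a mitotic kinesin, and Spc24, a kinetochore subunit, were higher in all 3 L1363P than in all 5 KP tumours. Hjurp had 156, 447 and 178 CPM, against 57.4 to 129 CPM in KP and 154 to 468 CPM in the 21 KB1P tumours. Kif18b had 59.3, 80.6 and 63.0 CPM, against 17.0 to 38.0 and 32.3 to 118 CPM, and Spc24 had 19, 23.4 and 33.7 CPM, against 7.13 to 11.9 and 16.4 to 42.9 CPM. These 3 genes were at KB1P levels in the L1363P tumours and low in KP. Their log2 fold changes against KP were 1.54 (SE 0.29), 1.34 (SE 0.30) and 1.52 (SE 0.34), with edgeR adjusted p of 0.00455, 0.0497 and 0.0497, and against the mean of both titles 0.08, 0.13 and -0.01.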

How the data were processed

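The authors deposited a table of read counts per gene for 39438 symbols and a table of log2 normalized counts for 37148, per the file headers. DESeq, featureCounts 2.0.0, STAR 2.7.3a, cutadapt 2.10 and the build mm10 are listed, per the submitters' processing notes. Libraries were poly(A)-selected and strand-marked, per the labels' protocols. The strand setting of the counting is not stated in the labels or headers. The members and gene lists were chosen with earlier results of these data known.

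Counts were fitted with edgeR 4.0.16 in R 4.3.3 over all 73 libraries in 8 groups, filterByExpr at a minimum count of 10 and TMM scaling. The quasi-likelihood F test was adjusted by Benjamini-Hochberg over the 18492 genes tested, with a threshold of 0.05. Ribosomal protein genes and pseudogenes stayed in the fit and were left out of counts and names, which leaves 17545 genes. DESeq2 1.42.0 and limma 3.58.1, the latter on the deposited log2 values, were alternatives. Comparisons with single runs used a fit with the KB1P and KB1PM groups split by run, in which 18145 genes were counted. The fitting code was tested on simulated data. SE is the standard error of a log2 fold change.

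Named genes are Brca1, Bard1, Palb2, Brca2 and Trp53. Then, per direction, come the 12 genes with the largest fold change and the 6 with the smallest p, among protein-coding genes called against both titles whose log2 fold change is at least 1 in size and whose mean log2 CPM reaches 1. Then come up to 3 genes per direction that passed against 1 title and between titles, and up to 4 called genes per list. Others are said to be chosen later or are given as genes that did not pass or as markers. The 38 lists hold 635 memberships, of which 603 were tested. Pseudogene copies were found by aligning annotated pseudogenes to GENCODE M21 transcripts with minimap2 2.31-r1302. Gene positions are those of GRCm38, the assembly behind mm10. The count table holds 24 symbols turned into dates, with 0.1688% of counts, which were left unnamed. The values of some genes are not reported here.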

Additional observations from a re-analysis of the deposited data

Results flagged for a closer look

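Among the named genes, single tumours stood far from the rest of their group in both reference groups of suitable size. For normally distributed values chance sets apart about 1 in 20 groups under this criterion, and 2 groups were examined for each of 52 genes. The criterion was applied to CPM without logs, for which that rate was not checked. Of the 10 KB1PM-titled tumours, tumour 2 was apart for Fabp4 (260.2 CPM, next 40.2) and Pparg (5.57 CPM, next 2.26). Tumour 6 was apart for Kpna2 (7.96 CPM), Actg1 (35.7 CPM) and Abcb1b (303 CPM, next 106), tumour 3 for Hspa8 (185 CPM) and Snrpf (7.82 CPM), and tumour 8 for Mmgt1 (174 CPM). Of the 5 KP tumours, 1 was apart for Eef1g (743 CPM), Gapdh (1960 CPM, next 614) and Hspd1 (669 CPM). A second KP tumour was apart for Zfp275 (263.9 CPM, next 79.8) and tumour 40 for Atp5l (1.01 CPM). The KP tumour apart for Abcb1b (129 CPM) and KB1PM-titled tumour 8 are among the 3 libraries lowest in Epcam.

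In 8 named genes the 2 KB1P titles differed by edgeR's quasi-likelihood test, so the size of the L1363P difference was not the same against each title. Gapdh, Hmgn2, Pam16 and Abcb1b were named by that difference. The log2 difference of KB1PM-titled minus KB1P-titled tumours was -1.95 for Kpna2 (adjusted p = 0.00182), -1.74 for Actg1 (0.0308), -1.24 for Hnrnpa1 (0.00487), -0.72 for Eif4a1 (0.0167), -2.30 for Gapdh (0.00635), -1.66 for Hmgn2 (0.00743), -1.24 for Pam16 (0.0491) and 4.26 for Abcb1b (4.19e-06). For Kpna2 the 9 KB1P-titled tumours outside run 3528 had 3.10 to 8.93 CPM and the KB1PM-titled ones 2.79 to 7.96 CPM. The ranges of these 9 and of the KB1PM-titled tumours also overlapped for Actg1, Hnrnpa1, Eif4a1, Gapdh, Hmgn2 and Pam16. In all of these genes both tumours of run 3528 lay above the other 9 of their title. Only for Abcb1b were the titles apart without run 3528, at 1.02 to 16.2 CPM in the 9 and 36.4 to 303 CPM in KB1PM-titled tumours.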

How the results depend on the processing

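No paired analysis was possible because the numbers of the L1363P tumours (7.2, 26.2 and 52) occur in neither KB1P title and only name tumours. Leaving out each L1363P tumour in turn (7.2, then 26.2, then 52) gave 137, 129 and 121 higher and 95, 85 and 104 lower genes against both titles. The counts, lowest and highest, were 270 to 277 higher and 122 to 168 lower (140 without tumour 7.2) against the mean of both titles, 302 to 332 (316 without tumour 7.2) against KB1P-titled, 323 to 418 (417 without tumour 52) against KB1PM-titled, 11 to 14 against KP and 253 to 257 (254 without tumour 7.2) between titles, and Brca1 had 1.22 to 1.57. Fitting the 24 libraries alone gave 105 higher genes against both titles, 326 against KB1P-titled tumours and 1 between titles. Between titles there were 37 with adenocarcinomas only, 276 without a count filter, 66 with runs weighted equally, 3 with limma and 15 without run 3528. Against KP there were 7 with DESeq2 size factors in edgeR, 21 without a count filter, 107 by DESeq2 and 0 by limma, where 741 were higher and 773 lower at an unadjusted p under 0.05. DESeq2 gave 373 lower genes against both titles and 623 against their mean, and limma gave 242 higher against the mean. Alternatives added after seeing the data were robust estimation, leaving out run 3528, run 3528 alone and leaving out the 3 libraries lowest in Epcam, which gave 202 higher and 199 lower genes against both titles. With run 3528 alone as the reference 38 genes were higher, and Brca1 had 0.91 (adjusted p = 0.328). Without tumour 52 the signs of Smim10l2a (-0.16) and Zfp275 (-0.09) turned. Of the 186 higher genes 96 remained called with the 24 libraries alone, 171 without run 3528 and 171 by DESeq2. Of the 201 lower genes these numbers were 124, 181 and 196. The causes of these shifts were not tested. In genes at a few counts per L1363P tumour, such as Scand1, depth limits the precision of the fold change.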

Other observations

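The Wnt lists gave no call against both titles. The median log2 difference against the mean of both titles was -0.38 for 18 ligands and -1.08 for 21 feedback and R-spondin genes, and against KP tumours -0.83 and -0.18. Wnt1, a ligand known as a mammary oncogene in mice, had 0.0602, 0.130 and 0.0675 CPM in L1363P tumours 7.2, 26.2 and 52, while the highest KB1P-titled tumour had 361 CPM and the highest KB1PM-titled one 109 CPM, with medians of 1.67 and 0 CPM. Axin2, a feedback target of the pathway, had 11.6, 9.34 and 3.85 CPM, against medians of 66.6 and 33.0 CPM. Its log2 difference was -3.15 against the mean of both titles (edgeR adjusted p = 0.0446) and did not pass against KB1P-titled tumours (-2.88, adjusted p = 0.0854). Rspo2, an R-spondin that amplifies Wnt signals, lies within the chromosome 15 stretch but is not among the 96 genes described there. It had 164 CPM in tumour 7.2 and under 0.1 CPM in the other L1363P tumours, and 232 CPM in 1 KB1P-titled tumour. These 3 genes were chosen after their values were seen.

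Chad, which encodes the cartilage protein chondroadherin, had 76.2, 17.8 and 1.62 CPM in the L1363P tumours, against at most 20.3 CPM in the 21. It was chosen after its values were seen, and its list went the other way. The 15 cartilage matrix genes tested had a median log2 difference of -0.63 against the mean of both titles, with 0 called against both. Their sum was 812.5 to 920.4 CPM in L1363P tumours, against medians of 1177 in KB1P-titled and 1584 in KB1PM-titled tumours. Ltf, the milk and neutrophil protein lactoferrin, had 342, 426 and 521 CPM in the L1363P tumours and medians of 20.5 and 40.7 CPM in the KB1P titles, with single KB1P tumours up to 895 CPM, and did not pass (log2 difference 2.28, edgeR adjusted p = 0.296).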
